A study of Homo sapiens with 2 samples.

Results

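The genes described here are SCN3B, SCN4B and TRPM4, taken by symbol from the 36601 genes of 1 single-cell gene expression library and followed across cell classes, cardiomyocyte clusters and subtypes, and antibody hashtags. The library came from 1 pool of H9 human embryonic stem cells, an established line carrying the gCaMP6f calcium reporter, that had been differentiated to cardiomyocytes until day 15, frozen and thawed. Pooled samples were told apart by 13 antibody-borne barcodes (hashtags), counted in a second library. No label says which sample a hashtag marks, and all cells share the line, the reporter and the thaw. Hashtags with no known sample are not used as replicates of a group. Groups of cells are therefore set side by side over the library and within hashtags, with no p-value. The series title places the pool in a study of cell heterogeneity in grafted cardiomyocytes and arrhythmia.

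SCN3B and SCN4B encode beta subunits of voltage-gated sodium channels. These are small membrane proteins with an immunoglobulin-like fold outside the cell, which bind the pore-forming alpha subunits and tune their gating, their amount at the surface and cell adhesion. TRPM4 encodes a cation channel that opens when calcium rises inside the cell and then passes sodium and potassium, but hardly any calcium, which depolarises the membrane. Variants of all 3 genes have been linked to inherited disorders of heart rhythm or conduction in people.

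After filtering, 20090 cells held a median of 11871 unique molecular identifiers (UMIs, counted RNA molecules). A cell was given to a hashtag where that tag made up 70% or more of its hashtag UMIs, of which 20 were required, and 9798 cells (48.8%) passed. The cells formed 14 clusters, built without the genes under study and without other sodium channel and TRPM genes. Of these, 8 clusters with 15285 cells were cardiomyocyte-like by their troponin, myosin and actinin markers. Another 5 were epicardial-like (251 cells), stromal-like (1585), epithelial-like (743), endoderm-like (313) and endothelial-like (66). A further cluster of 1847 cells had a median of 2129 UMIs, 12.2% mitochondrial UMIs and MALAT1 and NEAT1 among its leading genes, and was kept out of the comparisons. Levels are summed gene UMIs of a group, scaled to CPM (counts per 1000000 gene UMIs). Intervals are 95% intervals for counting error only. A gene was measured in a comparison if its higher side reached 10 CPM and 10 counts, and was called at a ratio of 1.5 or more either way.

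SCN3B was concentrated in epicardial-like cells. These cells were 1.25% of all cells and held 43.3% of the 467 SCN3B UMIs. Their level was 61.4 CPM (202 counts, interval 53.3 to 70.5), while the cardiomyocyte-like class had 0.579 CPM (133 counts, interval 0.485 to 0.686), a 106-fold higher level (interval 84.8 to 133). SCN4B was close to undetected, with 32 UMIs in 20090 cells. TRPM4 was found in every class and was highest in cardiomyocyte-like cells, with 21.1 CPM (4842 counts, interval 20.5 to 21.7), against 9.90 CPM in the 5 other classes pooled (364 counts, interval 8.91 to 10.97), a 2.13-fold higher level (interval 1.91 to 2.38). In the comparison of cardiomyocyte-like cells with the 5 other classes TRPM4 was the 1 gene of the 3 that was measured, and it was called higher. Of all measured genes 38.5% were called either way and 12.8% were called higher. The share of genes called is so large that a call alone sets no gene apart, and the sizes and the order of levels are given for that reason.

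**Figure D1:**
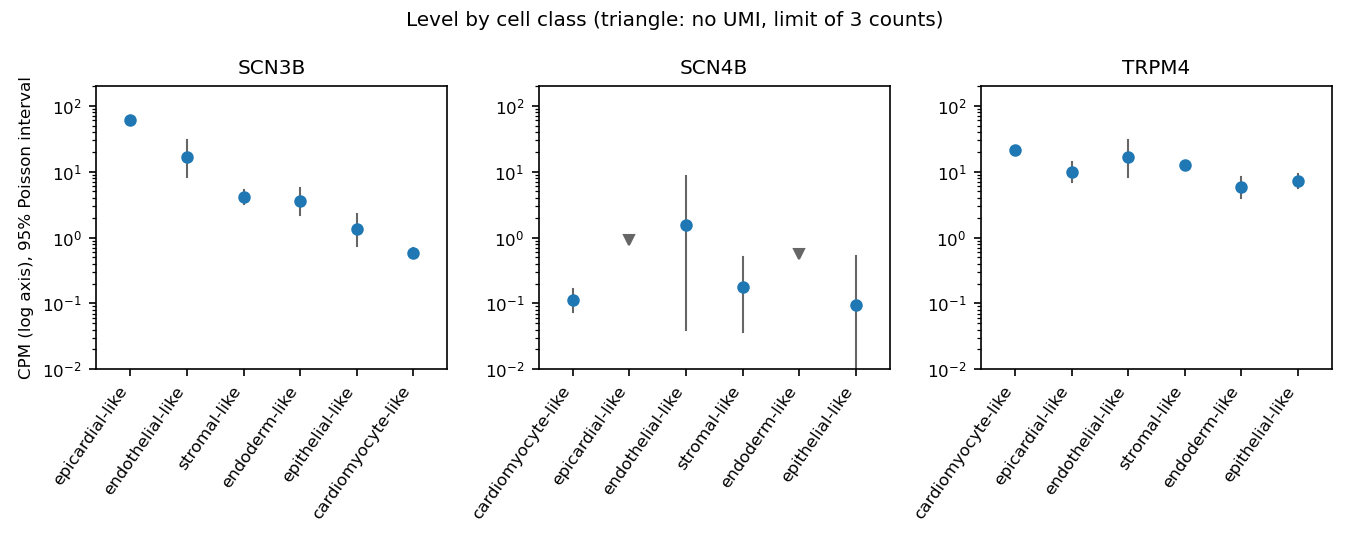
Level of SCN3B, SCN4B and TRPM4 in 6 cell classes, in CPM on a log axis; points are summed counts, lines are 95% Poisson intervals, and triangles mark classes with no UMI at the limit that 3 counts would give; 1 SCN4B interval runs below the axis. SCN3B falls over 2 orders of magnitude to 0.579 CPM in cardiomyocyte-like cells, SCN4B has wide intervals in all classes, and TRPM4 stays between 5.90 and 21.1 CPM.

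SCN3B (ENSG00000166257) lies on the minus strand of chromosome 11, at chr11:123629187-123655244 of GRCh38 in GENCODE 29, and no other annotated gene overlaps it. SCN4B, on the same chromosome and strand, is the other beta subunit gene described here. The 90 coding bases in which they are most alike, without gaps and in frame, are shown because they bear on whether reads of the 2 genes could be mixed up. Capitals mark bases that are equal in both, read 5′ to 3′ on the coding strand. The SCN3B stretch spans 2 exons within chr11:123645662-123653747 and the SCN4B stretch lies in 1 exon at chr11:118145123-118145212.
SCN3B: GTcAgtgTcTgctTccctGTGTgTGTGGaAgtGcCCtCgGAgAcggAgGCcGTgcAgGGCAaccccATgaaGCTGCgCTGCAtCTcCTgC
SCN4B: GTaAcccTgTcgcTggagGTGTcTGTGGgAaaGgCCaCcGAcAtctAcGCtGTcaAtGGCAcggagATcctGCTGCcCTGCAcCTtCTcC
The stretch holds codons 19 to 48 of 215 in SCN3B and codons 27 to 56 of 228 in SCN4B. Even there 50 of 90 bases (55.6%) were equal, and the longest run shared by the 2 whole transcripts was 13 bases.

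The order of SCN3B levels over the classes was epicardial-like, endothelial-like, stromal-like, endoderm-like, epithelial-like and cardiomyocyte-like. Endothelial-like cells had 16.9 CPM from 11 counts (interval 8.41 to 30.2). Stromal-like cells had 4.15 CPM from 71 counts (interval 3.24 to 5.23) and endoderm-like cells 3.62 CPM from 19 counts (interval 2.18 to 5.65). These 2 neighbours did not differ beyond their intervals. Epithelial-like cells had 1.34 CPM from 14 counts (interval 0.732 to 2.25), which overlaps the interval of the endoderm-like class. Epicardial-like cells thus stood 14.8-fold above stromal-like cells (interval 11.2 to 19.7). In that contrast 30.1% of measured genes were called either way and 8.85% were called higher. Over cardiomyocyte-like cells SCN3B was called higher in the epicardial-like class, where 43.3% of measured genes were called either way and 22.2% higher. It was also called higher in the endothelial-like class, at 29.1-fold (interval 14.2 to 53.8), where 54.7% were called either way and 25.4% higher. With all other classes pooled the level was 0.579 CPM in cardiomyocyte-like cells against 8.62 CPM, 14.9-fold lower, and both sides were under 10 CPM.

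Within the epicardial-like cells SCN3B was read in many cells, with unequal counts. Of 251 cells 101 (40.2%) held at least 1 SCN3B UMI and 150 held 0. Of those 101 cells, 53 held 1 UMI, 25 held 2, 8 held 3 and 8 held 4. A further 5 held 5, 1 held 8 and 1 held 10. After every cell was thinned to 3000 UMIs, 15.0% of epicardial-like cells held a UMI (37 of 246, interval 10.8 to 20.1), against 0.168% of cardiomyocyte-like cells (25 of 14882, interval 0.109 to 0.248). The epithelial-like class had the lowest thinned share, 0.143% (1 of 700), at a median depth of 13351 UMIs against 12802 in epicardial-like and 12848 in cardiomyocyte-like cells. The interval of that share (0.00362 to 0.793) covers the share in cardiomyocyte-like cells, so SCN3B in cardiomyocyte-like cells could not be told from that in epithelial-like cells by this measure, and the part of free RNA in either was not tested. By level, cardiomyocyte-like cells held 0.943% of the epicardial-like SCN3B level, while 8 epicardial markers had a median of 0.547% there.

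The class took its name from a list of 8 epicardial genes, so their level there describes the class and is no independent check of it. WT1 stood at 134 CPM in the epicardial-like class against 1.52 CPM in the cardiomyocyte-like class, and ALDH1A2, which makes retinoic acid, at 139 CPM against 0.614 CPM. TBX18, TCF21, BNC1, UPK3B and ITLN1 were likewise higher, between 31.6 and 223 CPM, while MSLN, a mesothelial gene, had 1 count in the epicardial-like class (0.304 CPM) and 0.765 CPM in the epithelial-like class. The 8 epithelial markers summed to 9003 CPM in the epicardial-like and 6538 CPM in the epithelial-like class. KRT8 and KRT18, keratins of simple epithelia, were higher in the epicardial-like class, at 3464 against 1809 CPM and 5068 against 2392 CPM. EPCAM (8.82 against 382 CPM), CDH1 (3.95 against 124 CPM) and CLDN4 (2.74 against 221 CPM) were lower there.

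SCN3B was also read in epicardial-like cells without a UMI of the epicardial markers. It had 57.2 CPM in the 28 cells with none of the 8 after thinning, 48.2 CPM in the 58 cells with 1, and 67.3 CPM in the 160 cells with at least 2, and the intervals overlap. Of 5 markers taken singly, TCF21 alone split the class into groups whose CPM intervals do not overlap. These intervals hold counting error only and leave out the unequal SCN3B counts of single cells. TCF21-positive cells had 82.6 CPM (85 cells, interval 66.9 to 101) and TCF21-negative cells 50.1 CPM (161 cells, interval 41.0 to 60.6). The unthinned shares of cells with a SCN3B UMI did overlap, at 49.4% (interval 38.4 to 60.5) against 36.6% (interval 29.2 to 44.6). SCN3B had 64.5 CPM in WT1-positive and 60.2 CPM in WT1-negative cells, and 63.9 CPM in TBX18-positive and 59.5 CPM in TBX18-negative cells. ALDH1A2-positive cells had 56.8 CPM against 63.5 CPM in negative ones, and BNC1-positive cells 52.5 CPM against 63.9 CPM.

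Stromal-like cells, led by COL3A1 and COL1A2, showed a graded pattern by summed level. SCN3B had 2.32 CPM in 1101 cells without any of the 8 epicardial markers, 8.76 CPM in 291 cells with 1 and 17.6 CPM in 63 cells with at least 2. The highest group rests on 13 counts (interval 9.36 to 30.1), which lies above the interval of the lowest (1.57 to 3.32). WT1-positive stromal-like cells had 18.2 CPM (10 counts, 48 cells) and WT1-negative ones 3.74 CPM (61 counts, 1407 cells). TCF21-positive stromal-like cells had 12.2 CPM (28 counts) and TCF21-negative ones 2.95 CPM (43 counts), and TBX18-positive ones 11.2 CPM (12 counts) against 3.74 CPM. The other 2 markers did not show it: ALDH1A2-positive cells held 0 SCN3B counts in 20 cells, and BNC1-positive cells had 6.73 CPM from 3 counts (interval 1.39 to 19.7) against 4.14 CPM in BNC1-negative ones. Over the whole stromal-like class SCN3B stood at 6.75% of its epicardial-like level, and the 8 epicardial markers at a median of 10.7%.

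**Figure D2:**
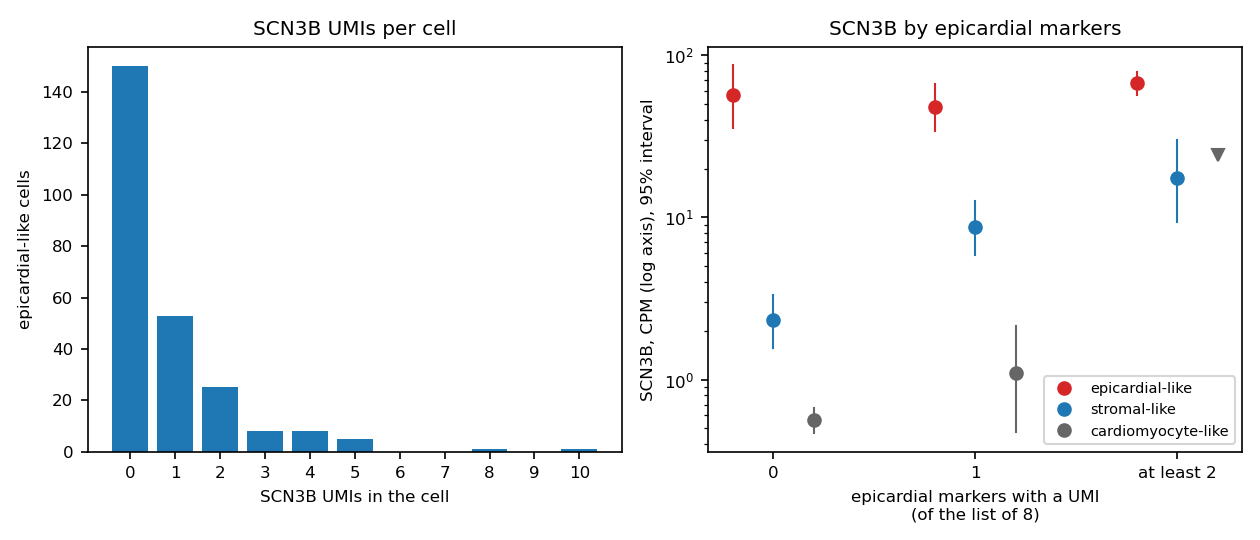
Left, number of epicardial-like cells by their SCN3B UMIs; right, SCN3B level in CPM on a log axis by how many of the 8 epicardial markers had a UMI after thinning, with 95% Poisson intervals and a triangle at the 3-count limit where no UMI was seen. Most epicardial-like cells held 0 to 2 UMIs, and the level in stromal-like cells climbs with the markers while that in epicardial-like cells stays between 48.2 and 67.3 CPM.

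Among cardiomyocyte-like clusters SCN3B ranged from 0.295 CPM (9 counts) in cluster 2, led by HSPB3, FGF12 and HEY2, to 1.46 CPM (32 counts) in cluster 3, led by LMOD2 and IRX1. Cluster 3 was 2.99-fold above the other cardiomyocyte-like cells, which had 0.486 CPM (interval of the ratio 1.95 to 4.50). Both values lie far under 10 CPM, so no call was made. IRX1-positive cells, a subtype defined by at least 1 UMI of that ventricular transcription factor after thinning, had 1.02 CPM (17 counts) against 0.542 CPM in the other cells. The 139 cells positive for SHOX2, a pacemaker marker, held 1 SCN3B UMI, and the 4656 cells positive for HEY2, a ventricular marker, held 49.

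By hashtag, SCN3B in all cells ranged from 0.344 CPM (Hashtag9) to 4.48 CPM (Hashtag8), with a median of 1.10 CPM over 13 hashtags. Hashtag8 also had the highest share of epicardial-like cells, 3.21% of its cells. Only 67 of the 251 epicardial-like cells (26.7%) were given to 1 hashtag, against 49.0% of cardiomyocyte-like cells. The 23 epicardial-like cells of Hashtag8 had 88.1 CPM (30 counts, interval 59.5 to 126) and the 17 of Hashtag5 had 53.6 CPM (12 counts, interval 27.7 to 93.5), and no other hashtag had 10 such cells. SCN3B was lower in cardiomyocyte-like cells than in the other classes within 8 of the 9 hashtags that had 50 cells on both sides. The exception, Hashtag1, had 1 count on each side. Among the 8, the ratio of cardiomyocyte-like cells to the other classes had an interval that covers 1 in Hashtag2 and Hashtag7. It was 0.677 in Hashtag2 (interval 0.219 to 1.97) and 0.331 in Hashtag7 (interval 0.0887 to 1.503). Some sides rested on few counts, such as 1 count in the cardiomyocyte-like cells of Hashtag12. How many of all genes were lower in as many hashtags was not counted.

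SCN4B (ENSG00000177098) lies on chromosome 11, at chr11:118133377-118152888 on the minus strand, and no annotated gene overlaps it. Its 32 UMIs amount to 0.117 CPM over all cells (interval 0.0799 to 0.165). Cardiomyocyte-like cells held 26 of them (0.113 CPM), stromal-like cells 3, and epithelial-like and endothelial-like cells 1 each. Epicardial-like cells held 0, which allows a level of up to 0.912 CPM, and endoderm-like cells 0, which allows up to 0.571 CPM. The ratio of cardiomyocyte-like cells to the other classes was 0.833 (0.113 CPM against 0.136 CPM, interval 0.315 to 2.78), so no difference was detectable at this depth. Within the cardiomyocyte-like cells 9 UMIs fell in cluster 4, led by NMB, MT3 and the hypoxia-responsive DDIT4, and 7 in the mitotic cluster 6. Cluster 4 had 0.326 CPM against 0.0841 CPM in the other cardiomyocyte-like cells, a ratio of 3.88 with a wide interval (1.52 to 9.20).

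TRPM4 (ENSG00000130529) lies on the plus strand of chromosome 19 at chr19:49157741-49211836, with no overlapping annotated gene. Its closest relative is TRPM5, the other calcium-activated monovalent channel of the family. The 90 coding bases in which they are most alike are shown with equal bases in capitals, from chr19:49200325-49200414 (plus strand) and chr11:2411653-2411742 (minus strand).
TRPM4: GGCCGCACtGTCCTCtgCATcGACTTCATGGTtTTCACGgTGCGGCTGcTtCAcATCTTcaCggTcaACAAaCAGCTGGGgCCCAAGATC
TRPM5: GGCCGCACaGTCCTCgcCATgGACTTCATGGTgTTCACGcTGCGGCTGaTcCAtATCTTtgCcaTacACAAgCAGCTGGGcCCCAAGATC
The stretch holds codons 891 to 920 of 1214 in TRPM4 and codons 834 to 863 of 1165 in TRPM5. There 73 of 90 bases (81.1%) were equal, and the longest run shared by the transcripts was 20 bases. TRPM5 itself had 24 UMIs in all cells.

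The window around the start of TRPM4 in RefSeq (GRCh38.p14, chr19:49157542-49157841, plus strand, 250 bases before to 50 after) is shown because the gene was read in all classes. Capitals mark GGGCGG on either strand, a letter pattern known from GC boxes.
TRPM4 start: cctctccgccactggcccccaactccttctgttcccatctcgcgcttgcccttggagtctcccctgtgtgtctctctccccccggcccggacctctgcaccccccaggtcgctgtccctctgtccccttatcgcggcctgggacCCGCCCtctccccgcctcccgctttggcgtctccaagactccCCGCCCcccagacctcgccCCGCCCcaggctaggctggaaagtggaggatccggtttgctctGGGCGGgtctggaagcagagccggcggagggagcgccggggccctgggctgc
It is 71% G and C, with 21 CG pairs, against medians of 58.7% and 14 over 35116 RefSeq windows. Of all windows 60.5% hold fewer CG pairs. GGGCGG occurs 4 times in it, at bases -106, -64, -45 and -2 from the start, and 44.95% of all windows hold it at least once. TATAAA, held by 11.5% of windows, and CANNTG, held by 68.7%, are not in it on either strand. The RefSeq window of SCN4B, the gene close to undetected, was alike, with 64.7% G and C, 18 CG pairs and GGGCGG 2 times. That SCN4B window lies wholly inside the GENCODE gene and is not shown. The TRPM4 window begins before its GENCODE gene, but its RefSeq start also lies inside that gene. RefSeq windows were found for 2 of the 3 genes. A link between these sequences and the level of a gene was not tested.

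Against cardiomyocyte-like cells, 4 of the 5 other classes had TRPM4 called lower. Epicardial-like cells had 10.0 CPM (33 counts, interval 6.91 to 14.1), 2.10-fold lower than the 21.1 CPM of cardiomyocyte-like cells. In that contrast 43.3% of measured genes were called either way and 21.1% were called lower. Stromal-like cells had 12.4 CPM (213 counts), 1.69-fold lower, where 36.5% of measured genes were called either way and 11.1% lower. Epithelial-like cells had 7.26 CPM (76 counts), 2.90-fold lower, where 46.6% were called either way and 18.9% lower. Endoderm-like cells had 5.90 CPM (31 counts), 3.57-fold lower, where 45.5% were called either way and 19.8% lower. Endothelial-like cells had 16.9 CPM from 11 counts (interval 8.41 to 30.2), which cannot be told from cardiomyocyte-like cells at this depth. Stromal-like and epicardial-like cells, neighbours in the order, did not differ beyond their intervals either, with a ratio of epicardial-like to stromal-like cells of 0.806 (interval 0.541 to 1.17). Scaling by edgeR's trimmed mean of M-values (TMM) shifts all genes by 0.41 on the log2 scale in favour of cardiomyocyte-like cells over the others, and by -0.18 in epicardial-like over cardiomyocyte-like cells. It gives TRPM4 a ratio of 2.84 in place of 2.13.

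UMIs of cardiomyocyte markers were read in the other classes too. Relative to cardiomyocyte-like cells, the 12 markers had a median level of 7.78% in epicardial-like and 24.4% in stromal-like cells, the lowest and highest of the 5 classes. TRPM4 stood at 47.6% and 59.0% of its cardiomyocyte-like level in the same classes, and at 28.0% in endoderm-like cells, where the markers were at 12.2%. How much of the TRPM4 signal in these classes was free RNA was not tested. In thinned cells a TRPM4 UMI was found in 6.56% of cardiomyocyte-like cells (977 of 14882, interval 6.17 to 6.97) and in 3.12% of the other classes (86 of 2758, interval 2.50 to 3.84). Unthinned, the shares were 25.5% and 11.4%, at median depths of 12848 and 11467 UMIs. The lowest thinned share was 1.02% in endoderm-like cells (3 of 293), at a median depth of 14044 UMIs.

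Among the cardiomyocyte-like cells TRPM4 was even. The 8 clusters ranged from 16.6 CPM in the mitotic cluster 6, led by UBE2C and CDK1, to 25.5 CPM in cluster 3. Clusters 0, led by NPPA and NPPB, 4 and 8, the last led by metallothioneins, had 22.9, 22.2 and 22.1 CPM. Clusters 1, 2 and 11 had 20.3, 21.2 and 21.9 CPM. No cluster passed 1.5-fold against the other cardiomyocyte-like cells, where 11.8, 7.05, 10.9, 11, 8.46, 8.75, 3.22 and 11.3% of measured genes did in clusters 0, 1, 2, 3, 4, 6, 8 and 11. Cluster 6 had a ratio of 0.750 (interval 0.691 to 0.812) and the deepest cells, with a median of 20979 UMIs. Cluster 3 had a ratio of 1.24 (interval 1.13 to 1.35) and a median of 9971 UMIs.

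Subtypes set by marker genes gave the same narrow range. SHOX2-positive cells had 27.5 CPM (44 counts, 139 cells, interval 20.0 to 36.9), against 21.3 CPM in HEY2-positive cells (1662 counts, 4656 cells, interval 20.3 to 22.4). The ratio was 1.29 (interval 0.931 to 1.74), so no difference was detectable, in a contrast where 17.7% of measured genes were called and none of the 3 genes was. The same ratio was 1.07 when cells were sorted into subtypes at 5000 UMIs, and 0.991 without thinning. Cells positive for NR2F2, an atrial marker, and negative for SHOX2 had 20.6 CPM (377 counts, 1579 cells), a ratio to HEY2-positive cells of 0.965 (interval 0.860 to 1.08), where 8.96% of measured genes were called. IRX1-positive cells had 24.2 CPM against 20.7 CPM in the other cells, a ratio of 1.17 (interval 1.05 to 1.29, 2.96% called), and mitotic cells 16.5 CPM against 21.5 CPM, a ratio of 0.768 (interval 0.691 to 0.851, 9.54% called). Median depth differed as well, with 8654 UMIs in SHOX2-positive, 9083 in NR2F2-positive, 14592 in HEY2-positive and 19789 in mitotic cells, and its part in these ratios was not tested.

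**Figure D3:**
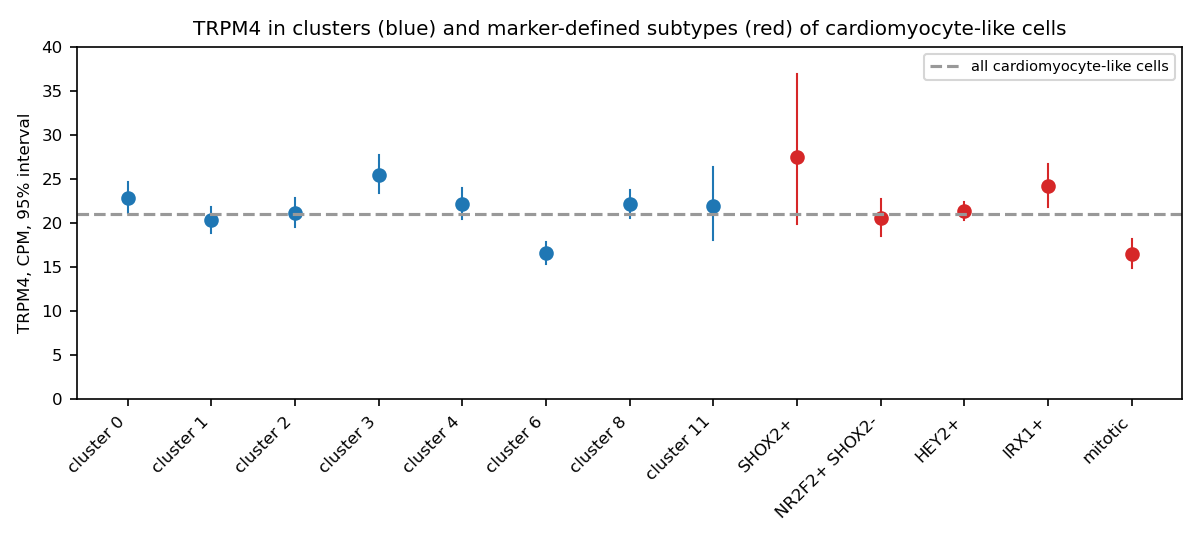
TRPM4 level in CPM, with 95% Poisson intervals, in the 8 cardiomyocyte-like clusters and in 5 subtypes set by marker genes; the dashed line is the level of all cardiomyocyte-like cells, 21.1 CPM. All clusters lie between 16.6 and 25.5 CPM, with cluster 6 and the mitotic cells lowest.

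TRPM4 varied more with the depth of the cell than with its cluster. In cardiomyocyte-like cells it had 58.3 CPM at 1000 to 3000 UMIs (48 counts, 403 cells), 38.02 CPM at 3000 to 6000, 24.4 CPM at 6000 to 10000, 21.5 CPM at 10000 to 15000, 19.1 CPM at 15000 to 25000 and 19.7 CPM from 25000 UMIs on. Cells with a higher mitochondrial share also had more, 20.0 CPM under 2% and 29.3 CPM from 10% on. The difference between classes was present at each depth. At 1000 to 3000 UMIs cardiomyocyte-like cells had 58.3 CPM against 15.0 CPM in the other classes, at 10000 to 15000 UMIs 21.5 CPM against 10.2 CPM, and from 25000 UMIs on 19.7 CPM against 8.59 CPM. SCN3B in cardiomyocyte-like cells showed no such order, with 0.570 CPM for 3000 to 6000 UMIs (3 counts) and 0.678 CPM from 25000 on (41 counts).

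**Figure D4:**
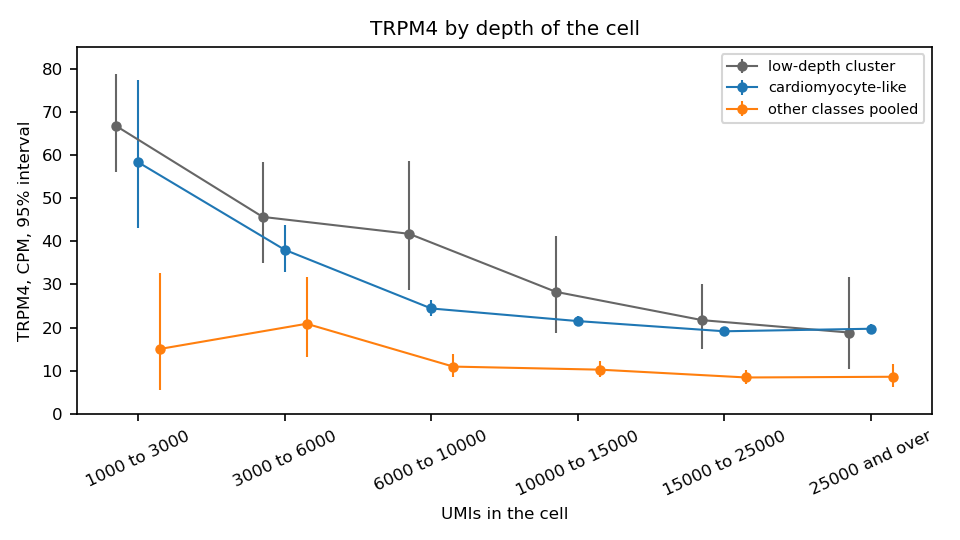
TRPM4 level in CPM with 95% Poisson intervals by the number of UMIs in the cell, in the low-depth cluster, in cardiomyocyte-like cells and in the 5 other classes pooled. The level in cardiomyocyte-like cells is 58.3 CPM in the shallowest cells and 19.7 CPM in the deepest, and lies above that of the other classes in all 6 ranges.

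Across hashtags TRPM4 in cardiomyocyte-like cells ranged from 16.3 CPM (Hashtag10) to 28.3 CPM (Hashtag1), with a median of 21.0 CPM over 13 hashtags. Hashtag10 had the deepest cardiomyocyte-like cells, a median of 17975 UMIs, and Hashtag1 the fewest, 115 cells with 36 TRPM4 counts. Hashtag14 and Hashtag15, with the shallowest such cells (8143 and 8247 UMIs), had 24.8 and 24.6 CPM. Within hashtags the difference between classes had the same direction. Cardiomyocyte-like cells were at least 1.5-fold above the other classes in 9 of 9 hashtags with 50 cells on both sides, with ratios of 1.79 to 4.24 and a median of 2.18. The lowest ratio, in Hashtag3, had an interval that covers 1 (0.881 to 4.22). Hashtag10 rested on 4 counts in the other classes (interval 1.18 to 11.5). How many of all genes passed 1.5-fold in as many hashtags was not counted.

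**Figure D5:**
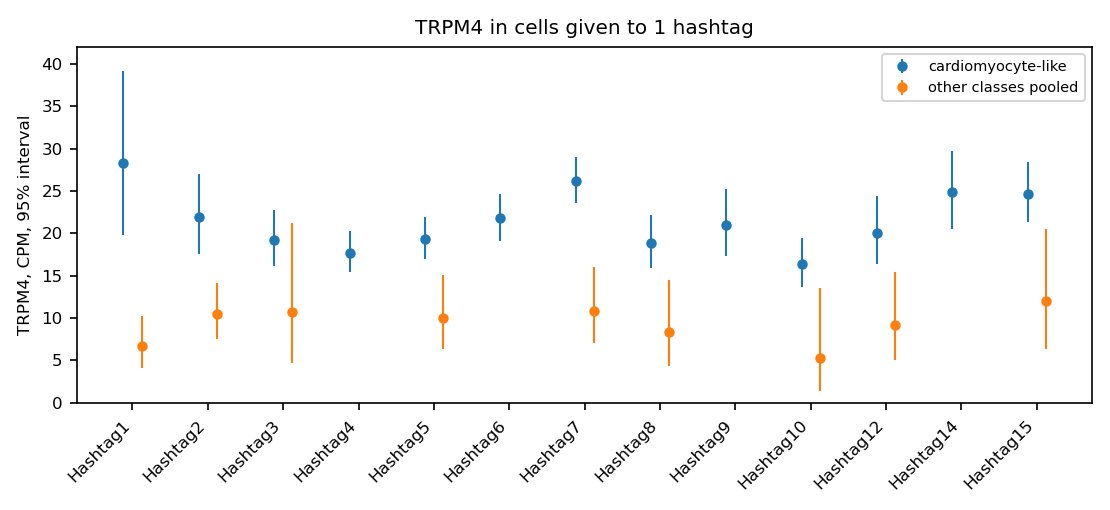
TRPM4 level in CPM with 95% Poisson intervals in cardiomyocyte-like cells of the 13 hashtags, and in the other classes pooled for the 9 hashtags with at least 50 such cells. In each of the 9 the cardiomyocyte-like level is the higher, between 16.3 and 28.3 CPM.

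SCN3B and TRPM4 were seldom read in the same cell. In thinned epicardial-like cells 1 of 246 held both (0.407%), beside a product of the separate shares of 0.550%. In thinned cardiomyocyte-like cells 2 of 14882 did (0.0134%), beside a product of 0.0110%. With 1 and 2 such cells, no departure from the product was detectable. Over the 13 cell classes and cardiomyocyte clusters, which share 1 library, the genes whose log2 level followed SCN3B most closely were ALDH1A2 (Pearson r = 0.983), WNT2B (0.980), SLC7A7 (0.977), ADCYAP1 (0.976) and ARHGAP22 (0.974), all highest in epicardial-like cells. The groups include 8 cardiomyocyte clusters low in SCN3B, so the 1 epicardial-like group largely sets these values. ALDH1A2 is also on the list that named that class. Within the class, ALDH1A2-positive cells had 56.8 CPM of SCN3B against 63.5 CPM in negative ones. TRPM4 was followed most closely by ZER1 (r = 0.979), MEF2D (0.972), a muscle transcription factor, HK1 (0.966), a hexokinase, RASGRP2 (0.957) and CRIP2 (0.957). No gene was sought for SCN4B, which stayed under 10 CPM in all groups.

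Of 41 other genes of these channels and their partners, 19 were measured between cardiomyocyte-like cells and the other classes, of which 6 were called higher and 6 lower (9 and 4 under TMM scaling). Over all measured genes in this contrast 12.8% were called higher and 25.7% lower. SCN2B, a further beta subunit gene, was under 10 CPM in every class, with 2 counts in epicardial-like cells and 99 in cardiomyocyte-like cells. Of 9 further alpha subunit and leak channel genes 2 were measured, and both were called lower in cardiomyocyte-like cells, beside 25.7% of all measured genes. SCN7A, an atypical alpha subunit, had 0.858 CPM in cardiomyocyte-like cells against 21.9 CPM in the others, 25.5-fold lower, and SCN9A 2.74 CPM against 10.6 CPM, 3.85-fold lower. Like SCN3B, SCN7A was highest in the epicardial-like class, at 66.0 CPM, 76.9-fold above the cardiomyocyte-like class, and it had 33.4 CPM in the stromal-like class. SCN7A was also the 1 alpha subunit gene measured between SHOX2-positive and HEY2-positive cells, with 13.1 CPM (21 counts) against 0.578 CPM (45 counts), a 22.7-fold higher level (interval 12.8 to 38.9).

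Sodium channel partners, which anchor, traffic or modify the pore, differed between the classes. Of 13, 10 were measured, 5 were called higher in cardiomyocyte-like cells and 1 lower (DLG1, 0.546, no longer past 1.5-fold under TMM scaling), with a median ratio of 1.97. Over all measured genes 12.8% were called higher and 25.7% lower, with a median ratio of 0.874. FGF12, an intracellular fibroblast growth factor homologue that binds the alpha subunit, had 49.0 CPM in cardiomyocyte-like cells against 7.64 CPM in the others (6.41-fold). ANK2, an ankyrin, had 31.0 CPM against 9.57 CPM (3.24-fold), and FGF13 37.1 CPM against 14.1 CPM (2.64-fold). In epicardial-like cells 6 of the 10 were called lower and 1 higher (DLG1, 2.30-fold), with a median ratio of 0.642, where over all measured genes 21.1% were called lower and 22.2% higher, with a median ratio of 1.01. FGF12 had 1.52 CPM there, 32.2-fold lower than in cardiomyocyte-like cells, ANK2 3.65 CPM, 8.49-fold lower, and FGF11 5.17 CPM, 3.55-fold lower. FGF12 was also uneven among cardiomyocytes, with 20.0 CPM in SHOX2-positive and 23.7 CPM in NR2F2-positive cells against 59.3 CPM in HEY2-positive cells, 2.97-fold and 2.50-fold lower.

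In the TRPM family only TRPM7, a channel fused to a kinase, was measured beside TRPM4. It had 23.6 CPM in cardiomyocyte-like cells against 30.3 CPM in the other classes, a ratio of 0.780 (interval 0.731 to 0.833), not called. Of 10 genes for partners and calcium sources of TRPM4, 6 were measured, 1 was called higher and 3 lower in cardiomyocyte-like cells, with a median ratio of 0.611, beside 12.8% higher, 25.7% lower and a median of 0.874 over all measured genes. ORAI1, the store-operated calcium channel pore, had 32.7 CPM against 20.2 CPM (1.61-fold). ITPR2 and ITPR1, receptors that release stored calcium, were 5.59-fold and 2.10-fold lower, at 2.83 against 15.8 CPM and 12.7 against 26.6 CPM. In epicardial-like against cardiomyocyte-like cells ORAI1 was 3.07-fold lower, CALM3, a calmodulin gene, 1.77-fold lower, and ITPR1 1.51-fold higher, the last no longer past 1.5-fold under TMM scaling. Antisense genes overlap FGF12, FGF13 and TRPM7 in the annotation, and the labels and headers do not say whether counting used strand.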

How the data were processed

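The deposited matrix holds raw UMI counts for each gene or hashtag in each barcode, made with Cell Ranger 4.0.0 per the file headers and genome build hg38 per the submitters' processing notes. For alignment settings, annotation release and cell calling: not given in the sources used here. Of 24038 barcodes, 21623 passed minimums of 500 genes and 1000 UMIs and a maximum mitochondrial share of 25%. Scrublet (scanpy 1.11.5) marked and removed 1533 (7.09%), fewer than the expected 19.2%. Undetected doublets are therefore likely among the cells. Counts were scaled to 10000 per cell and logged. The 2000 most variable genes, without the genes described, mitochondrial and ribosomal genes, gave 30 principal components, a 15-neighbour graph and leidenalg 0.10.2 clusters (resolution 0.6, seed 0). Clusters were named from 14 marker lists. Shares of cells used cells thinned to 3000 UMIs, which left out 403 cardiomyocyte-like cells. CPM have exact Poisson, shares exact Clopper-Pearson and ratios exact conditional binomial intervals at 95%. A count of 0 allows up to 3 counts. Subtypes needed 1 marker UMI after thinning (mitotic: 3 of 10 genes). Likeness used log2(CPM + 5) over 10740 genes. Ratios were tested on simulated Poisson counts, the model their intervals assume. That simulation held no differences between cells or hashtags, so it says nothing about such spread. TMM factors came from edgeR 4.0.16. All members are named in each comparison, and up to 4 genes of each list past 1.5-fold, ranked by ratio; some items are not reported here. The members and lists were chosen with earlier results of these data known.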

Additional observations from a re-analysis of the deposited data

Results flagged for a closer look

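The cluster of 1847 low-depth cells, which no comparison uses, also held the genes described. TRPM4 had 41.2 CPM there (312 counts, interval 36.7 to 46.0), 1.95-fold above the 21.1 CPM of cardiomyocyte-like cells (interval 1.73 to 2.19). In the same contrast 39.6% of 9604 measured genes were at least 1.5-fold higher, MALAT1 was 5.46-fold, NEAT1 5.82-fold and TRPM7 3.67-fold higher, and TNNT2 had a ratio of 0.768. At 1000 to 3000 UMIs the low-depth cluster had 66.7 CPM of TRPM4 (interval 56.1 to 78.7) and cardiomyocyte-like cells 58.3 CPM (interval 43.0 to 77.3), which overlap. SCN3B had 2.24 CPM in the low-depth cluster (17 counts, interval 1.31 to 3.59), 3.87-fold above cardiomyocyte-like cells. No part of depth, mitochondrial share or nuclear RNA in these values was tested.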

How the results depend on the processing

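Over all alternatives run, 0 results were labelled reversed. Some ratios near 1 did change side, such as TRPM4 in SHOX2-positive over HEY2-positive cells, at 1.29 as reported and 0.991 without thinning. Of the values for the main comparisons 107 stayed within the 95% interval of the reported value (counts: within 1.5 times) and 9 moved further. Counts of channel and partner genes called higher and lower were 6 and 6 as reported, 9 and 4 under TMM scaling and 7 and 7 when measured from 5 CPM. Under TMM scaling the ratio of cardiomyocyte-like cells to other classes moved to 0.0894 for SCN3B and 2.84 for TRPM4, and the NR2F2-positive to HEY2-positive ratio of TRPM4 to 0.857. That last ratio was 1.33 in the 1 hashtag with 50 cells on both sides. The share of cells with a UMI followed depth: at 5000 UMIs and without thinning it was 25.5% and 40.2% for SCN3B in epicardial-like cells, and 10.2% and 25.5% for TRPM4 in cardiomyocyte-like cells. With hashtags held to 90% of their UMIs (2532 cells) the median TRPM4 level over hashtags was 17.3 CPM. Leaving out each hashtag in turn gave 100 to 110 for the SCN3B ratio of epicardial-like to cardiomyocyte-like cells and 2.07 to 2.17 for the TRPM4 ratio of cardiomyocyte-like cells to the others. Thinning each cell to 3000 UMIs, added after seeing the data, gave 93.1 and 2.09. Only 26.7% of epicardial-like and 49.0% of cardiomyocyte-like cells were given to 1 hashtag, and no hashtag held more than 23 epicardial-like cells. Leaving out a hashtag could therefore move the SCN3B ratio little, and its narrow range says little about differences between samples. At resolutions 0.4 and 1.0, 0 of 5 and 0 of 12 cardiomyocyte clusters passed 1.5-fold for TRPM4. For the subtypes, the setting with no filter on barcodes was not run, and no hashtag held 50 SHOX2-positive cells. The causes were not tested. No paired analysis was possible because the labels give no sample groups or replicate numbers. Ratios within hashtags take that place in the report. SCN4B, with 32 UMIs, and SCN3B within cardiomyocyte-like cells are limited by depth.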
